A study of Mus musculus with 2 samples.

Results

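Long intergenic noncoding RNAs (lincRNAs) are transcripts from regions between protein-coding genes that are spliced and polyadenylated much like mRNAs but carry no long open reading frame. Many are scarce and restricted to some cell types, whereas a few, such as Malat1 and Neat1, are abundant nuclear RNAs found in most cells. Known members coat a chromosome, scaffold nuclear bodies or act near their own site of transcription. For most transcripts of this class, including most of those expressed in T cells, no function is known.

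The lincRNA probes of the array were taken as the non-control probes whose identifier begins with the prefix of Agilent's lincRNA content, without regard to their signal. There were 16251 such probes among 55681 gene probes, each printed as 1 spot, and 16249 of them were usable because 2 were marked as outliers on the Control array. They carry 4622 different names. Of the probes, 8171 are named for a mouse genomic region with the letter F and 8010 with the letter R, 13 for 3 regions without a letter, and 57 for 12 RNAs with a name of their own. The letters were read as the 2 strands of a region, and the coordinates as those of the mm9 build that the file headers give. The 3540 regions with a letter comprise 1067 with probes to both strands. A name has a median of 3 probes and at most 10, and the named regions span 62 to 7128487 bp with a median of 7304 bp. The probe sequences and a genome of that build were not used here, so exons, introns and overlapping genes are not given for these regions.

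The samples were TCRαβ+CD8αα+ intraepithelial lymphocytes (IELs), the T cells that lie between the epithelial cells of the gut, from the small intestine of C57BL/6 mice aged 8 to 12 weeks. The Control sample came from mice labelled Rbpjf/f, and the RFF4 sample from mice labelled CD4-Cre Rbpjf/f, in which Cre under the Cd4 promoter deletes floxed *Rbpj*, the DNA-binding partner of the Notch intracellular domain, in cells that have passed through *Cd4* expression. The labels name no Cre for the Control mice, whereas the paper's controls for its IEL counts were Rbpj+/+ mice that carried CD4-Cre, and which of these gave the array sample is not settled. Each sample was RNA of male and female mice pooled over several isolations and hybridized to 1 array of 1 color, so each genotype has 1 array, without a replicate on which a test could rest. In pooled RNA of sorted cells, fewer cells of a type and less RNA per cell cannot be told apart.

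The arrays shared a slide and a scan, and the array labelled RFF4 was dimmer, with a 75th percentile of log2 signal of 7.82 against 8.99. Levels below are log2 signals relative to that percentile of the same array, and differences are RFF4 minus Control. Over probes printed 10 times, the technical SD of a difference was 0.127. *Heyl* and *Dtx1*, which are Notch target genes, differed by -3.80 and -3.63, whereas *Rbpj* itself differed by 0.32, and whether its probes lie in the deleted part is not known. Of the T cell and IEL markers, 10 of 12 listed were on the array, and all were detected, with levels of 3.37 to 8.99 on the Control array and a median difference of 0.19. *Cd4* had a level of 1.67 on the Control array and 1.80 on the array labelled RFF4, and *Cd8b1*, which marks cells that the sort removes, was well above background on the Control array alone at -3.52. All 14 epithelial markers were higher on the array labelled RFF4, with a median difference of 1.60 and a log2 summed level of 7.88 on the Control array and 9.48 on the other. All 11 macrophage and dendritic cell markers were higher as well, with a median difference of 2.42 and summed levels of 5.81 and 7.05. Of the 5 B and plasma cell markers that were detected, 3 were more than 2-fold higher, namely *Mzb1* (2.15), *Ms4a1* (1.79) and *Jchain* (1.68), while the brighter *Xbp1* and *Cd79b* differed by -0.30 and -0.26, with a median difference of 1.68 over the 5 and summed levels of 6.47 and 6.77, and *Cd79a* was not well above background on either array. The part of these other cells in the differences below was not tested.

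To show what lies upstream of named members, the promoters of Xist and Malat1, the named RNAs with the lowest differences, and of Tug1, which differed little, are printed from RefSeq (GRCm38.p6, a build other than that of the probe names). Each run holds 250 bases before and 50 bases from the annotated start, 5′ to 3′ on the strand of the gene, and capitals mark the 50 bases from the start on. The Xist promoter is chrX:103483184-103483483 on the minus strand, the Malat1 promoter chr19:5802623-5802922 on the minus strand, and the Tug1 promoter chr11:3648765-3649064 on the minus strand.
Xist: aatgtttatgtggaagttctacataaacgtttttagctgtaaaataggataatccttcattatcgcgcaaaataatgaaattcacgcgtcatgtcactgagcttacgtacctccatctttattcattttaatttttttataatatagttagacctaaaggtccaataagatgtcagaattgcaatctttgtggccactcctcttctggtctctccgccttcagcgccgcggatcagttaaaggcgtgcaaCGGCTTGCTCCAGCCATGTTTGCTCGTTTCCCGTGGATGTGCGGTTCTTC
Malat1: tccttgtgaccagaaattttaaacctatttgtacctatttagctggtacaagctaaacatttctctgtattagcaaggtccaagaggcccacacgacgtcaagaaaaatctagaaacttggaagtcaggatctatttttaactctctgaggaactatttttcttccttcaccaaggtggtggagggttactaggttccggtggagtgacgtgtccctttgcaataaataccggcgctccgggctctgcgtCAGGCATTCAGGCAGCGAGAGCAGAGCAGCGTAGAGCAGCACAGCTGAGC
Tug1: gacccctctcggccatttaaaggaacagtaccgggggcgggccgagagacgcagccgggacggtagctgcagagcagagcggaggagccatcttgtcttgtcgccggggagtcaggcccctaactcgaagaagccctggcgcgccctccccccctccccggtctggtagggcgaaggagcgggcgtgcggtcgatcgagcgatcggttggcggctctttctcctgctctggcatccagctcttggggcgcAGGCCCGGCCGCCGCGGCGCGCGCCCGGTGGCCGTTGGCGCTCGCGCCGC
The core letters of the RBPJ motif, TGGGAA, searched on both strands, were found in none of the 3 (0), and in 25.6% of 32851 promoters of the same length. Of the 6 named RNAs with a promoter in this set, only Nron holds these letters (1 of 6). The Tug1 promoter has a GC content of 71.3% with 37 CG dinucleotides, the Malat1 promoter 47.0% with 10 and the Xist promoter 41.3% with 15, against medians of 52.7% and 7.0 over all promoters. A match or its absence in this window is a description of the letters and shows no binding.

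Among lincRNA probes that passed on both arrays, the lowest differences were at Xist, the RNA that coats and silences the inactive X chromosome in female cells. Its 5 probes, named XIST on the array, had levels of -0.18, 0.26, 0.48, 1.23 and 1.58 on the Control array. The same probes, in the same order, had levels of -3.70, -3.59, -2.90, -1.67 and -1.29 on the array labelled RFF4. Each of the 5 was detected on both arrays, and the 2 sets of levels did not overlap. The differences ran from -3.84 to -2.87 with a median of -3.39, a level 10.5-fold lower, and filled 5 of the 10 lowest places among these probes. With normexp background correction the median was -2.18. Tsix, the RNA transcribed across Xist from the opposite strand, was not well above background with any of its 5 probes on either array, which leaves no difference to give. Of 4 genes of the Y chromosome, chosen after the Xist values were seen, *Ddx3y* differed by -0.56, *Uty* differed by -0.033 and *Eif2s3y* by -0.11, and *Kdm5d* was well above background on the array labelled RFF4 alone, with a bound of at least 1.78 higher. The numbers of male and female mice in each pool are not given, and their part in the Xist difference was not tested. The 138 lincRNA probes of the X chromosome that were well above background on both arrays had a median difference of 0.26, inside the range of the medians of the other chromosomes, 0.013 to 0.30.

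Malat1, a nuclear speckle RNA named NEAT2 on this array, was the next lowest of the named RNAs. Its 3 probes had levels of 3.48, 3.60 and 4.10 on the Control array and 0.89, 0.95 and 1.37 on the array labelled RFF4, so that every Control level lay above every RFF4 level. The differences were -2.58, -2.65 and -2.74, and the median of these 3 probes corresponds to a 6.28-fold lower level. Brighter R probes of the same part of chromosome 19, described with that stretch, differed far less, and whether they also measure Malat1 is not known, because the promoter and the probe regions are given in different builds. Neat1, the scaffold of paraspeckles and a neighbor of Malat1 on chromosome 19, was lower with each of 5 probes, from 2.71 to 3.74 on the Control array and from 1.19 to 2.21 on the array labelled RFF4. Its median difference was -1.51, a 2.86-fold lower level, and the SD over its probes was 0.041, less than the technical SD. Tug1, an RNA expressed in most tissues, differed far less. Its 5 probes ran from -0.42 to 1.70 on the Control array and from -0.90 to 1.19 on the other, with a median difference of -0.48 and an SD of 0.022 over the probes.

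Probes of the same RNAs outside the lincRNA set, named by RefSeq accessions, gave differences of -2.71 for Malat1, -1.33 for Neat1, and -2.12 for 1 probe of Xist, the other Xist probe being well above background on the Control array alone with a bound of at least 2.58 lower. The 3 such probes of Tug1 differed by -0.53, -0.30 and 0.30, so that they disagree in direction. For Kcnq1ot1, 2 such probes differed by 0.16 and -0.69.

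The remaining named RNAs were dim. Kcnq1ot1, the antisense RNA that silences an imprinted cluster of chromosome 7, was well above background with all 5 probes on both arrays, with differences of 0.21 to 0.75 and a median of 0.41. Of 5 probes of Nron, a repressor of NFAT, 2 passed on both arrays, with differences of 0.40 and 0.59. Hotair, encoded in the HoxC cluster, passed with 1 of 5 probes, at -3.99 on the Control array and -3.23 on the other. With spike-in controls set equal, the medians of Kcnq1ot1, Nron and Hotair turned to -0.69, -0.61 and -0.35. The p53-induced lincP21 and Pinc passed with 1 of 5 probes each, on the Control array alone. No probe of the imprinted fetal RNA H19 or of BRN1-A passed, 0 of 5 and 0 of 4. Of the 3 regions without a strand letter, chr17:12941161-12944859 was lower with 5 of 5 probes (median -1.56, 2.95-fold lower), chr3:34856791-34869544 passed with 1 of 3 (2.76 on the Control array and 0.34 on the other, difference -2.42), and chr6:52032838-52033444 with 0 of 5.

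**Figure D1:**
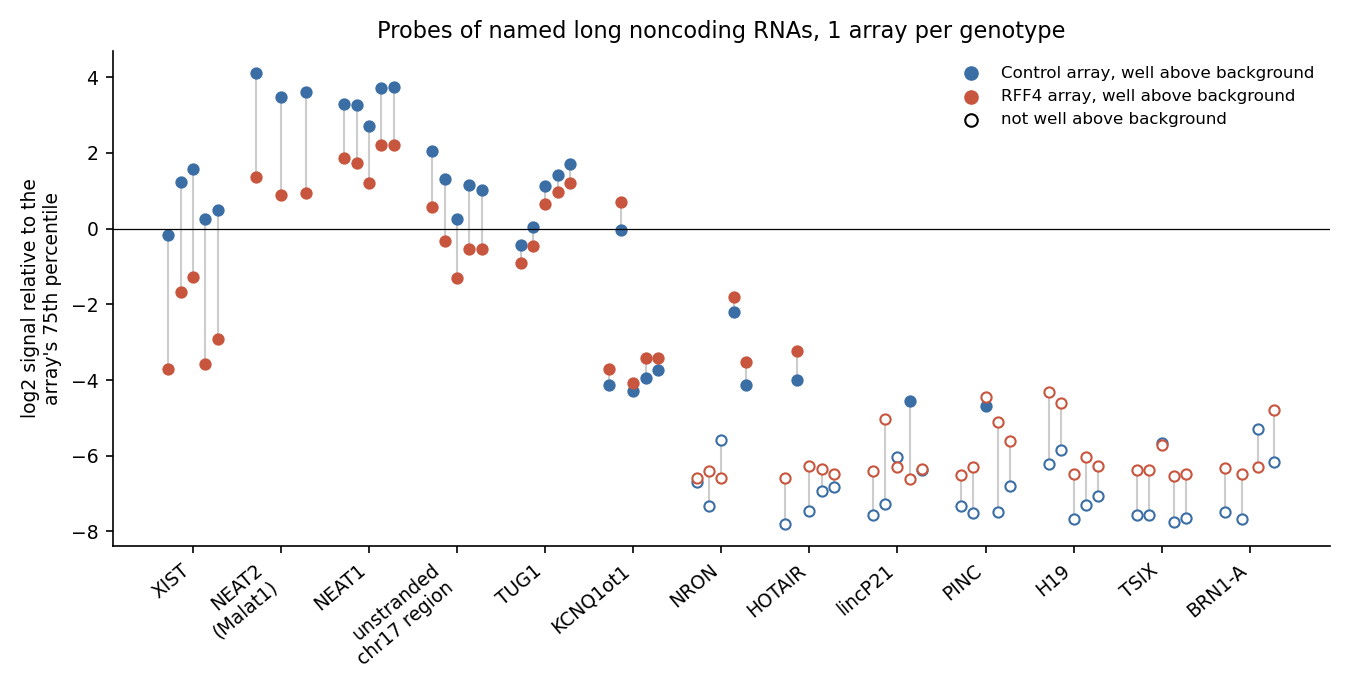
Log2 signal of each probe of 12 named RNAs and of 1 region of chromosome 17 without a strand letter, relative to the 75th percentile of its array, with the array of origin by color and open circles where a probe was not well above background. A line joins the 2 values of a probe. All 5 XIST, 3 NEAT2 and 5 NEAT1 probes lie lower on the array labelled RFF4, with median differences of -3.39, -2.65 and -1.51, and the TSIX, H19 and BRN1-A probes are open on both arrays.

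As a class, lincRNA probes were dim. On the Control array 6564 of them (40.4%) were well above background, against 62.9% of the 39430 other gene probes, and on the array labelled RFF4 4627 (28.5%), against 56.9%. The signal of the lincRNA probes was a median of 1.75 times background on the Control array and 1.21 times on the other. Before any filter, their median level was -6.06 on the Control array, against -3.13 for other gene probes, and -5.73 against -2.99 on the array labelled RFF4. In all, 4527 passed on both arrays, 2037 on the Control array alone, 100 on the array labelled RFF4 alone and 9585 (59.0%) on neither.

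The probes on neither array had a median difference of 1.18, the same as the 1.18 of other gene probes on neither array, which is close to the distance between the 75th percentiles and shows where the scaling puts a signal at background. They were therefore left out. The 4527 lincRNA probes that passed on both arrays had a median difference of 0.14, with quartiles of -0.38 and 0.65 and an SD of 0.78. The median for the other gene probes was 0.022. For a probe that passed on 1 array, the difference was a bound, for which the dim array was given its own signal or its lowest signal above background, whichever was higher (-5.51 for Control and -4.29 for RFF4). No difference was taken where that bound fell under 1-fold, which was the case for 1372 lincRNA probes. Of the 665 bounds toward lower and 100 toward higher values, 117 and 100 were past 2-fold. The lower limits of the 2 arrays alone lie more than 2-fold apart, so a bound toward higher values starts past 2-fold for a probe at or under the Control limit. All 299 such bounds of the other gene probes were past 2-fold too, and these counts are no sign of a direction.

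A difference could thus be given for 5292 lincRNA probes, with a median of 0.024 that was -0.061 after quantile normalization and -0.047 after cyclic loess. Of these, 634 (12.0%) had an RFF4 signal over 2-fold that of the Control, beside 11.5% of all gene probes, and 441 (8.33%) were more than 2-fold lower, beside 5.87%. More than 4-fold higher were 82 (1.55%), beside 1.81%, and more than 4-fold lower 45 (0.85%), beside 0.641%. The share with higher values was near that of the array as a whole, and that with lower values was above it. Without bounds, over probes passing on both arrays, 534 (11.8%) were higher and 324 (7.16%) lower, beside 10.8% and 5.12% of all gene probes. The split between directions depended on the scaling. Of the probes past 2-fold, 59.0% were higher by the 75th percentile, 38.7% by median scaling, 49.1% after quantile normalization, 76.7% after normexp and 2.02% when spike-in controls were set equal. After normexp, 2.36% of lincRNA probes were more than 2-fold lower, beside 2.89% of all gene probes, and with spike-in controls set equal 44.6% beside 51.6%, so that the order of these shares turned under both.

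Among probes well above background on both arrays, most lincRNA probes lay at low levels. Of them, 25.5% had a mean level between -4 and -3 and 22.0% between -3 and -2, against 9.37% and 10.2% of other gene probes. Only 2.19% (99 probes) exceeded 4, against 15.1%. In the 99 brightest, the median difference was 0.48, with 25 probes (25.3%) more than 2-fold higher and 0 more than 2-fold lower, against a median of 0.29 and shares of 5.45% and 1.62% for other gene probes at that level. Of these 25, 4 are the probes of chr17:39960567-39992817 (F) and 3 those of chr17:39983902-39985688 (F), which lies inside it. The share thus rests in part on few regions and is no trait of bright lincRNA probes at large. In the 539 with mean levels between 0 and 2, 71 (13.2%) were more than 2-fold higher and 58 (10.8%) more than 2-fold lower, against 8.71% and 5.59% of other gene probes at that level. At the low levels that hold most lincRNA probes, the share more than 2-fold higher was below that of other gene probes, with 11.2% against 18.7% between -4 and -3, 8.52% against 14.7% between -3 and -2 and 6.70% against 13.1% between -2 and -1. Under -4, the unequal lower limits of the arrays admit no probe that is more than 2-fold lower, so the medians there, 0.74 for lincRNA probes and 0.87 for other gene probes, are set by the filter. No chromosome stood far from the rest, as the medians over probes that passed on both arrays ran from 0.013 on chromosome 13 to 0.30 on chromosomes 10 and 15.

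**Figure D2:**
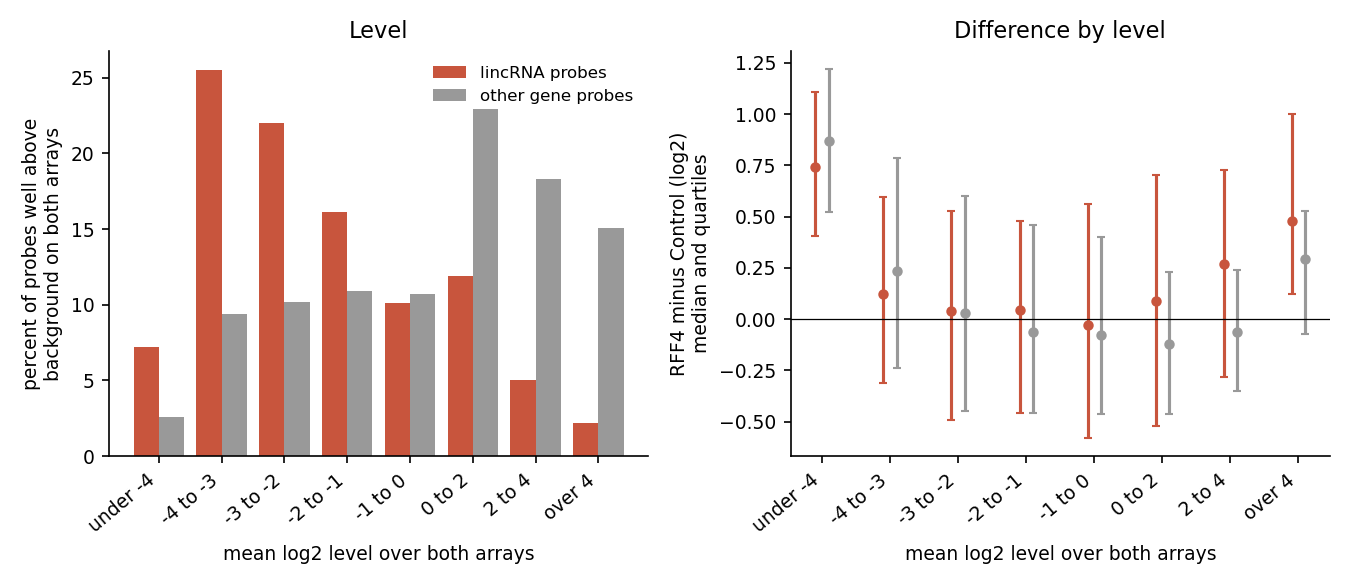
Left, share of the probes well above background on both arrays (4527 lincRNA and 22155 other gene probes) in bins of mean log2 level relative to the 75th percentile. Right, median and quartiles of RFF4 minus Control in the same bins. The lincRNA probes lie mostly at low levels, with 25.5% in the bin from -4 to -3, and in the brightest bin their median is 0.48. The median of the dimmest bin is set by the filter, which admits no probe more than 2-fold lower there.

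The 5 brightest lincRNA probes differed little or were higher on the array labelled RFF4. At chr19:5801802-5802597 (R) the brightest probe had levels of 8.99 and 9.06, a difference of 0.071. The only probe of chr11:22681800-22707775 (R) had 8.50 and 9.15 (0.65), and the brightest probe of chr17:17481706-17482457 (R) 8.33 and 8.57 (0.24), with the other probes of that region at 0.15 and 0.20. For chr6:116092274-116144199 (F), levels of 7.95 and 8.93 gave a difference of 0.99, and the other F probes that passed on both arrays gave 0.825 and 1.0997. In contrast, the 10 probes to its R strand, all passing on both arrays, ran from -1.01 to 0.32. At chr14:78924115-78938125 (F) 1 probe had 8.31 and 9.32 (1.01), whereas the other 2 that passed on both arrays had levels of -3.59 and -3.51 on the Control array and differences of -0.068 and 0.20. The brightness of this region thus rests on 1 of 7 probes.

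Several probes of a region give a check on each other, although they share an array and are not replicates. Of 1102 names with 2 or more probes well above background on both arrays, 754 (68.4%) had all differences in the same direction. With 3 or more such probes there were 593 names, of which 379 (63.9%) did. The SD of differences within a name was 0.46, against 0.79 over all probes of these names, and the median range within a name was 0.48. Agreement was higher for brighter names. It was 63.9% for names with mean levels under -2, 69.7% between -2 and 0 and 81.1% above 0, where the median range fell to 0.27. Levels within a name varied more than differences, with a range whose median was 1.51 on the Control array. In 239 names (21.7%), probes lay more than 1 log2 unit apart, and in 8 names probes were past 2-fold in opposite directions.

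Names with 3 or more probes on both arrays, all more than 2-fold in the same direction, were singled out after their values were seen. There were 41 of these among the 593, with 23 lower and 18 higher on the array labelled RFF4. By median scaling, 34 were lower and 6 higher. No such count was made for the other gene probes, so these numbers have no background beside them. Of the 23 lower names, 14 carry the letter F and 5 the letter R, their median level on the Control array was 0.48, and their median region length was 2424 bp. The 18 higher names comprise 10 F and 8 R, with a median Control level of -2.09 and a median length of 10115 bp. The 2 Control levels are partly set by the choice, because the lowest signal above background was -5.51 for Control and -4.29 for RFF4. A probe more than 2-fold lower must therefore be brighter on the Control array to pass on both than a higher one. The 38 with coordinates lie in 32 stretches more than 100 kb apart, 16 lower and 16 higher. Under the 8 alternative scalings and corrections other than spike-in controls, the medians of all 41 kept their direction. Of these medians, 18 came within 2-fold under at least 1 alternative (10 lower and 8 higher). The rule that every probe be past 2-fold was kept by fewer names. By median scaling, all 23 lower but only 6 of the 18 higher names still met it, and by normexp 10 lower and 6 higher did.

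**Figure D3:**
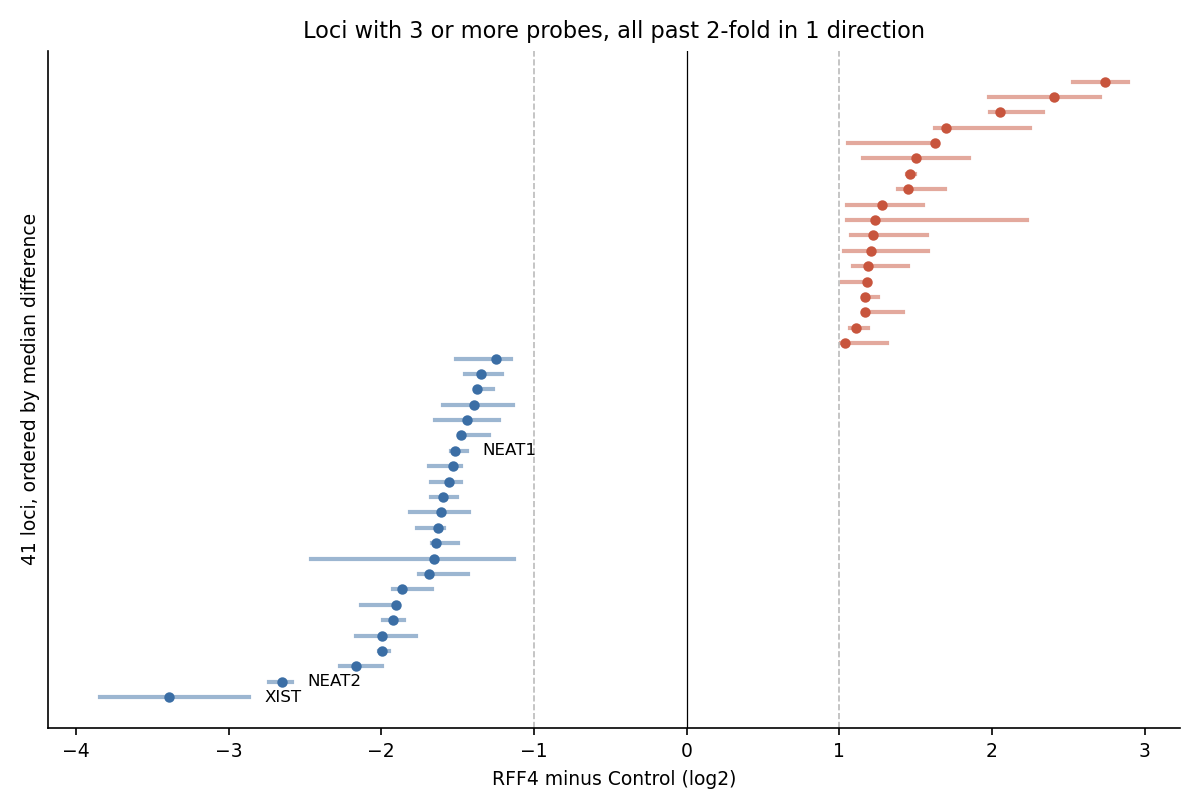
RFF4 minus Control (log2) for the 41 names with 3 or more probes well above background on both arrays, all past 2-fold in the same direction. Points are medians over the probes and bars run from the lowest to the highest probe; dashed lines mark 2-fold. The 23 lower names reach a median of -3.39 at XIST, and the 18 higher names reach 2.74.

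After Xist and Malat1, the lowest of these was chr12:111829967-111830904 (F). Its 3 probes had levels of 0.99, -0.73 and 0.44 on the Control array and -1.28, -2.89 and -1.55 on the array labelled RFF4, with differences of -2.27, -2.16 and -1.998. No Control level lay below the highest RFF4 level, and the median went from -2.16 to -1.53 after normexp. The longer region that contains it, chr12:111824094-111838478, did not follow, as the only F probe that passed on both arrays differed by 0.19. The 2 overlapping regions of chromosome 8, chr8:119092623-119094219 (R) and chr8:119090566-119097735 (R), were lower by a median of 1.99 each, with all 3 and all 5 probes from -2.17 to -1.77. To the opposite strand of the longer region, the 2 probes that passed on both arrays were higher, by 0.90 and 0.96. At chr1:82895400-82897576 (F) the Control levels were 2.08, 2.69 and 3.898 and the RFF4 levels 0.16, 0.84 and 1.91, with differences of -1.92, -1.85 and -1.99.

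Neighboring names were lower together in some stretches and not in others. Within 100 kb of the 16 lower stretches lay 21 other names on the same strand with a probe that passed on both arrays, of which 15 had a median below 0 and 6 above. Several of the 21 overlap or contain a selected name and may measure the same RNA. The share of all names with a median below 0 is not given, so the count shows no regional pattern. Those above 0 include chr6:31267612-31293337 (F), at 0.58 beside chr6:31170350-31287353 (F) at -1.60. Among those below 0, chr17:22013350-22095775 (R) was lower by little, at -0.13 beside chr17:22076711-22099431 (R) at -1.25. After normexp, the medians of chr6:31170350-31287353 and chr17:22076711-22099431 were -0.67 and -0.91, within 2-fold. The regions chr5:111538420-111540142, chr5:111565658-111566257 and chr5:111602486-111603075, all F, had median differences of -1.44, -1.90 and -1.65. These are dim, with median levels of -1.65, -1.50 and -1.91 on the Control array, and after normexp their medians were -0.39, -0.62 and -0.15. On chromosome 17, the unstranded region chr17:12941161-12944859 and chr17:12965849-12968519 (F), 20990 bp apart, had medians of -1.56 and -1.61, and the only F probe of chr17:12990484-13018375 next to them went from 0.66 to -1.47, a difference of -2.13. Farther along, the F probes of chr17:13008796-13023201 differed by -0.95 and 0.17 and that of chr17:13020750-13033750 by 0.49. On chromosome 16, chr16:43635730-43639104 (F) had a median of -1.35. There the longer region chr16:43623581-43642715 (F), which contains it, was lower with 7 of 7 probes that passed on both arrays, from -1.28 to -0.91, and chr16:43623175-43624069 (F) with 3 of 3, from -1.04 to -0.97. A similar case was chr18:84735774-84760824 (R), where 9 of 9 probes were lower, from -1.77 to -0.88, together with the shorter chr18:84757475-84757969 (R) inside it (median -1.86). After normexp, the medians were -0.82 at chr17:12965849-12968519, -0.54 at chr16:43635730-43639104 and -0.73 at chr18:84757475-84757969, all within 2-fold. Around chr1:139822286-139822985 (F), which had a median of -1.37, the F names chr1:139795171-139796306, chr1:139806645-139809498, chr1:139847592-139848243 and chr1:139856545-139857204 had medians of -0.64, -1.16, -1.001 and -1.498, whereas the 1 F probe that passed on both arrays for the longer chr1:139713316-139913366 was higher by 1.0997.

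Among the names singled out for 3 or more probes past 2-fold, the highest was chr5:35975265-35982561 (R). Its 4 probes had levels of -0.25, -1.98, 3.999 and 2.85 on the Control array and 2.28, 0.66, 6.84 and 5.74 on the array labelled RFF4. The differences were 2.53, 2.64, 2.84 and 2.89, with a median corresponding to a 6.69-fold higher level. The 4 probes to the F strand of the same region, with levels of 0.71 to 3.64 on the Control array, differed by -0.14 to 0.70, a median of 0.34. For chr1:135061034-135070387 (F), levels of -4.43, -3.50 and -3.80 stood against -2.45, -1.10 and -1.09, and the median difference was 2.40, or 1.61 after normexp. At chr14:33895294-33923644 (F), levels of -1.99, -0.54 and -2.06 stood against -0.0091, 1.51 and 0.28, with a median of 2.05, while the only R probe that passed on both arrays differed by -0.46. In each of these 3 names, every probe was higher on the array labelled RFF4, though the 2 sets of levels overlapped at the first because its probes differ widely in level. The epithelial and the macrophage and dendritic cell markers given above were higher on the same array, and their part in these values was not tested.

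Around the 16 higher stretches there were 13 such names, 9 with a median above 0 and 4 below, again with some that overlap a selected name. The overlapping regions chr10:39659425-39674200 (R) and chr10:39666719-39679959 (R) had medians of 1.63 and 1.70. On chromosome 17, chr17:39960567-39992817 (F) and chr17:39983902-39985688 (F) were among the brightest of all, with median Control levels of 5.13 and 6.54, and were higher by medians of 1.11 and 1.17. Probes to the R strand of the former gave 0.48 to 0.78. After median scaling the 2 medians were 0.94 and 1.00, and after quantile normalization 0.90 and 0.77, so that both lay within 2-fold.

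The 10 highest differences of probes that passed on both arrays came from 8 names, and for 3 of these names no second probe gave a difference. The top probe of these, at chr5:113594167-113645342 (R), went from -5.25 to -2.14, a difference of 3.11 (8.64-fold), and the 2 other probes of that name that passed on both arrays differed by 2.07 and 0.45. Of the 10 probes with the highest differences, 3 belong to chr5:35975265-35982561 (R) and 1 to chr1:135061034-135070387 (F). At chr6:131272447-131303615 (R) both probes were higher, by 1.88 and 2.62. At chr1:64686823-64728598 (R) the probe with 2.77 stood beside others at 0.40, 0.53 and 1.33. For chr11:69184157-69201732 (F), chr3:127037711-127111912 (R) and chr8:122843176-122844282 (F), with differences of 2.88, 2.72 and 2.63, no other probe of the name passed on either array.

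The 10 lowest differences of probes that passed on both arrays came from 4 names. Besides 5 probes of Xist and 3 of Malat1, they comprise 1 probe of chr19:5771425-5848475 (R) and 1 of chr14:115443612-115445950 (F), which went from -1.28 to -3.84, a difference of -2.56. The other probes of the latter were lower by 1.99 and, as a bound, by at least 2.73, so that all 3 moved in the same direction.

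Probes that passed on 1 array alone gave bounds. A probe of chr18:77291264-77299664 (R) was not well above background on the Control array and had a level of 0.54 on the array labelled RFF4, at least 66.1-fold higher, and the other 4 R probes passed on neither array. A probe of chr2:94046243-94070067 (F) reached -0.015 on the array labelled RFF4 alone, at least 45.0-fold higher, whereas none of the other 4 passed there. Next were probes of chr15:79764481-79809909 (R), chr13:19611679-19620954 (R) and chr17:17142085-17181901 (F), at least 17.7, 14.1 and 10.3-fold higher. Toward lower values, chr5:31856417-31916317 (R) led with a probe at -1.19 on the Control array and not well above background on the other, at least 8.63-fold lower, beside a probe of that name with a bound of at least 2.13-fold lower and another that was higher by 0.88. Probes of chr6:121035524-121061074 (F), chr6:136440100-136450050 (R), chr14:115443612-115445950 (F) and chr14:61240427-61325677 (F) followed, at least 7.15, 6.82, 6.63 and 6.06-fold lower.

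Of the names with the most probes well above background on both arrays, 5 had 10 such probes. At chr4:129497990-129515290 (F) all 10 were lower, from -1.08 to -0.70, and at chr17:26911397-26917047 (F) all 10, from -0.82 to -0.59. The other 3 were mixed, with ranges of -1.52 to 1.55 at chr5:74487385-74497428 (F), -1.01 to 0.32 at chr6:116092274-116144199 (R) and -0.71 to 0.48 at chr19:5771425-5848475 (F). In 4 of the next 5 names, with 9 such probes, all 9 were lower, with medians of -1.28 at chr18:84735774-84760824 (R), -0.88 at chr19:53517903-53540753 (R), -0.85 at chr12:72103832-72116875 (R) and -0.71 at chr3:19179899-19216399 (R), and the fifth, chr8:119732348-119749198 (F), ran from -0.59 to 0.42. Names with 9 such probes were taken from the lowest median up, so the shared direction of these 5 is no result.

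Some names did not behave as a unit. At chr3:88009045-88036270 (R), 1 probe went from 0.023 to -2.36 (-2.39) while others were higher by 1.103 and 1.44. At chr5:34696192-34722842 (F) the 4 probes differed by -2.003, 0.39, 1.03 and 1.49, and at chr14:105497388-105511063 (R) 4 of 5 ran from -1.64 to -1.23 and the fifth was 1.69. The 10 probes of chr5:74487385-74497428 (F) split into 6 lower and 4 higher, and those of chr11:97457180-97487074 (R) into 1 at -1.89 and 1 at 0.80. A region of several kb can hold more than 1 transcript, and the files do not give the position of a probe within its region.

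The stretch of chromosome 19 between 5771425 and 5848475 holds 7 names, which were looked at together after their values were seen. Its R probes include the brightest of the set, and whether any of them measure Malat1 or Neat1 is not known. At chr19:5801802-5802597 the 3 probes had levels of 6.35, 7.47 and 8.99 on the Control array and differences of -0.30, -0.14 and 0.071, none past 2-fold. At chr19:5798135-5800557, with Control levels of 4.91, 5.35 and 5.78, the differences were -0.91, -0.57 and -0.80. The single R probe of the whole stretch that passed on both arrays had 3.93 and 1.22, a difference of -2.70. At chr19:5834117-5835940, the 3 R probes were lower by 0.68 to 0.95. The F probes were dimmer and mixed, with 10 of 10 between -0.71 and 0.48 for the whole stretch and 3 of 3 higher, by 0.27 to 0.68, at chr19:5795690-5797464. With the 2 F probes of chr19:5841103-5845579, at -0.093 and 1.13, differences along this stretch ran from -2.70 to 1.13 within fewer than 100 kb.

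**Figure D4:**
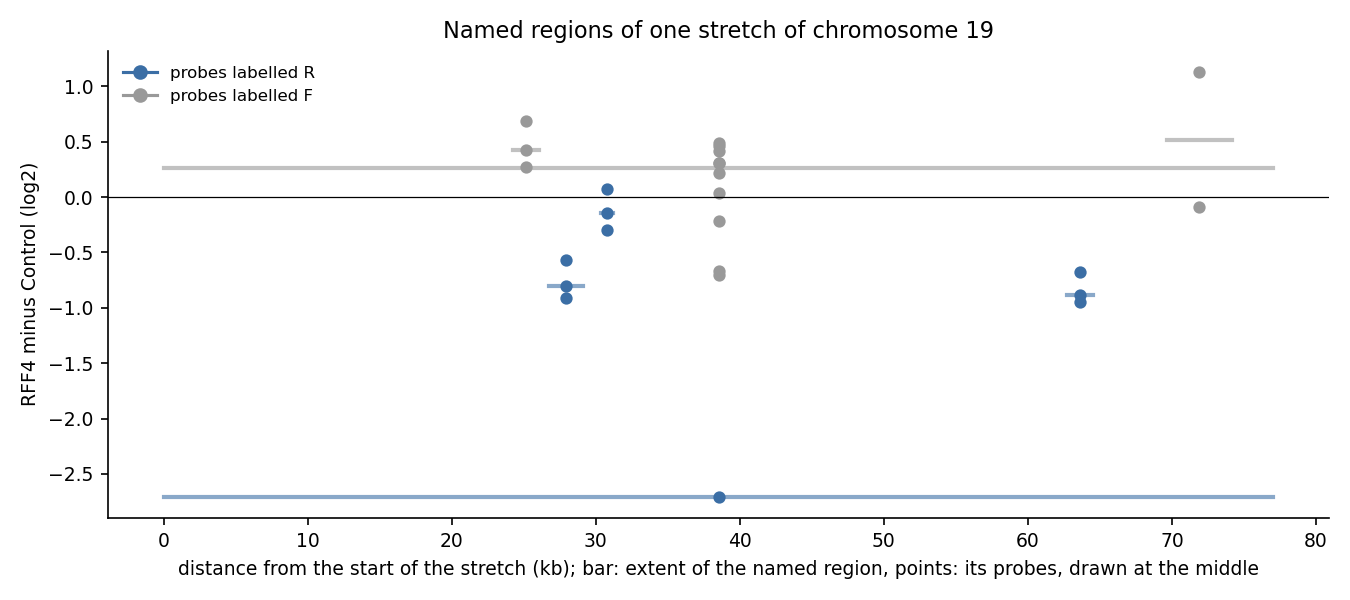
RFF4 minus Control (log2) of lincRNA probes well above background on both arrays in a stretch of chromosome 19, against distance from its start in kb. Bars show the extent of each named region at the median of its probes, and points are its probes, drawn at the middle because their positions are not given. The R probes lie from -2.70 to 0.071 and the F probes from -0.71 to 1.13.

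Probes to the 2 strands of a region were compared over the 1067 regions that have both. Both strands had a probe well above background on at least 1 array in 626 regions (58.7%), the F strand alone in 150, the R strand alone in 175 and neither in 116. A difference on both strands, from probes well above background on both arrays, could be given for 435 regions. The medians had the same direction in 281 of these (64.6%), and the strands differed by a median of 0.51. In 110 regions a single strand was past 2-fold, in 12 both were in the same direction and in 2 in opposite directions. The 12 include chr6:131263850-131314850 (1.90 for F and 2.38 for R), chr13:44217172-44224947 (1.73 and 1.81) and chrX:18744367-18853992 (1.48 and 1.53). The 2 with opposite directions were chr14:105497388-105511063 (1.36 for F, from 1 probe, and -1.55 for R) and chr2:35828611-35838083 (1.03 for F, from 2 probes, and -1.87 for R, from 2 probes). At the latter, 3 more R probes passed on the Control array alone, with bounds of at least 2.12, 2.34 and 1.59 lower, and 5 of 6 R probes were thus lower.

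**Figure D5:**
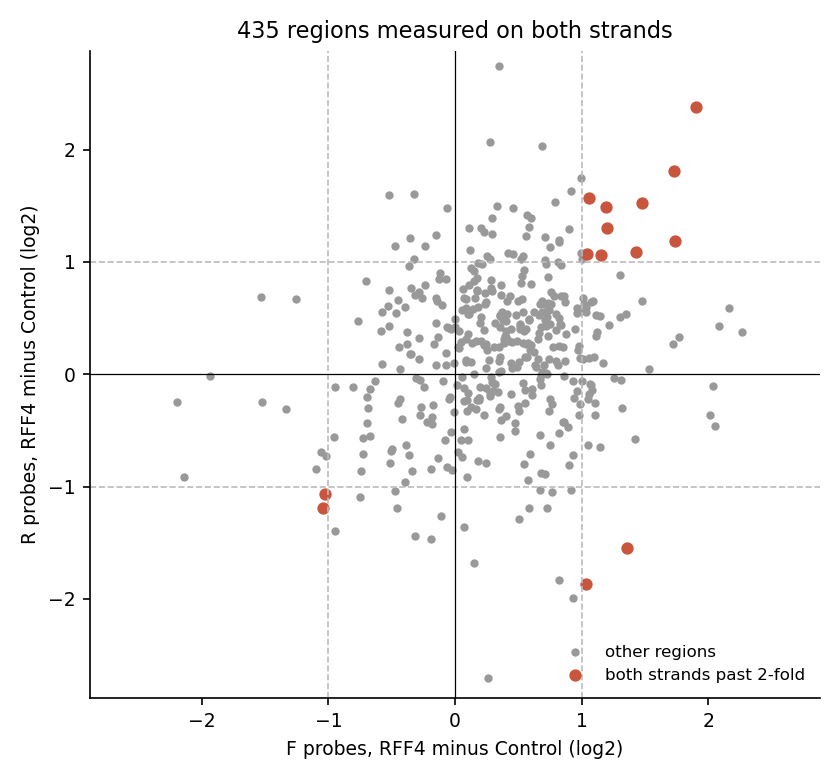
Median RFF4 minus Control (log2) of the R probes against that of the F probes for 435 regions with probes well above background on both arrays to each strand. Dashed lines mark 2-fold. In the 14 colored regions both strands were past 2-fold, in the same direction for 12 and in opposite directions for 2.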

How the data were processed

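RNA of sorted IELs was measured on 2 Agilent arrays. Scanner output made by the authors with Agilent Feature Extraction 10.7.1.1, named in the submitters' processing notes, was deposited, and its intensity values are background-subtracted spot signals on a linear scale, with no normalization between arrays. The authors also normalized the signals with GeneSpring, at settings not given in the sources used here, and deposited a score per probe, which its values show to be log2 signals centered over the 2 arrays. This table served as an alternative. No spot was saturated.

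From the intensities, log2 values minus the 75th percentile of each array over gene probes were computed, without control and outlier spots. The scanner's flag decided whether a probe was well above background (at least 50% of its spots). As each lincRNA probe is 1 spot on 1 array per genotype, the number of arrays limits the precision, and a difference was compared with the technical SD only. Fold calls were set at 2-fold and 4-fold. Gene names came from RefSeq (GRCm38.p6), which matched 27509 of 29150 accession probes and 10 of the 12 named RNAs, and no coordinates were converted. The probes named in the text are the 10 lowest and 10 highest differences, 5 bounds in each direction, the 5 brightest, the 10 names with most probes on both arrays (ties taken from the lowest median up), the 5 whose probes differ most and named RNAs past 2-fold. Others were chosen after their values were seen. A listed B cell marker is not reported here. The members, marker lists and tests were chosen with earlier results of these data known.

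Alternatives were median scaling, the 75th percentile over probes well above background on both arrays or over other gene probes, quantile normalization, cyclic loess, normexp with an offset of 50 (on median spot signals, because mean signals were not used here), the deposited table, outlier spots kept, 8 spike-in controls set equal, both-array and no filters, and 1 value per name. The computations were tested on simulated data. The software was R 4.3.3, limma 3.58.1, Python 3.11.15, pandas 2.3.3, numpy 2.4.6 and matplotlib 3.10.9.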

Additional observations from a re-analysis of the deposited data

How the results depend on the processing

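No paired analysis was possible because each genotype has 1 array, and for the same reason no array could be left out. With median scaling, 407 lincRNA probes were more than 2-fold higher, 68 more than 4-fold lower, and the median difference was -0.13 in place of 0.024, with all probes shifted by -0.17. With normexp, 363 and 110 were more than 2-fold higher and lower, 10 and 12 more than 4-fold, and the median was 0.47. With spike-in controls set equal, which assumes equal RNA input and shifted all probes by -1.11, these were 61 and 2960, 8 and 563, and -0.89, and the median of chr5:96591892-96606467 (F) turned from 1.04 to -0.0707, as did those of Kcnq1ot1, Nron and Hotair, to -0.69, -0.61 and -0.35. Without filter or bounds they were 6845 and 1100, 594 and 164, and 0.69, since most probes lie at background. With 1 value per name they were 331 and 125, 39 and 13, and 0.18, as there are fewer names than probes. Over probes passing on both arrays, 47 and 29 were past 4-fold. By the looser flag of a positive and significant signal, 11187 probes passed on the Control array and 9493 on the array labelled RFF4. Names with 3 or more probes all more than 2-fold higher numbered 6 by median scaling, 9 by quantile normalization, 6 by normexp and 1 by spike-in controls; those lower numbered 11 by normexp and 233 by spike-in controls. By normexp, 10 of the 23 lower and 6 of the 18 higher names remained. Why normexp moved these values was not tested. The other alternatives left these counts within 1.5 times, and the agreement of probes within a name ran from 55.7% to 79.5%. Signals close to background limit what can be said of most lincRNA probes.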
